A study of Mus musculus with 12 samples.

Results

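The genes of the proteasome were examined in liver RNA of 12 mice. Rows were taken by symbol (Psma, Psmb, Psmc, Psmd, Psme, Psmf or Psmg followed by a digit), which gave 50 of the 16821 genes listed. They comprise 7 genes of the alpha ring, 7 of the constitutive beta ring, 3 of the immunoproteasome (Psmb8, Psmb9, Psmb10), the alpha subunit Psma8, 6 ATPases and 11 non-ATPase subunits of the regulatory particle, 3 chaperones of its base, 5 activator genes, the inhibitor Psmf1 and 4 chaperones of the core. The rule also took Psmc3ip and Psme3ip1, which encode binding partners and not subunits. The beta subunit gene Psmb11, made in thymus epithelium, is not analysed here. All mice were adult male C57BL/6J, bought at an age of 8 weeks and adapted for 1 week. The 6 mice of the chronic exercise (Exe) group underwent moderate treadmill running over 6 weeks, in 5 sessions a week of 60 min each, and the 6 mice of the sedentary control (Con) group shared their room and did not run. Both groups were fed freely, and saline-perfused livers were collected within a day after the final session, so running shortly before sampling is part of the treatment. Each library is from 1 mouse. Values are given as FPKM, in which the fragments of a gene are divided by its transcript length and by the mapped total, so genes can be set side by side per length. No batch is given in the labels, and the depth in reads is unknown.

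The proteasome degrades proteins tagged with ubiquitin. Its core is a barrel of alpha and beta rings, and the cutting sites lie inside on Psmb5 (chymotrypsin-like), Psmb6 (caspase-like) and Psmb7 (trypsin-like). The regulatory particle binds the substrate, removes ubiquitin and unfolds the chain with its ATPases. In immune cells, and in other cells exposed to interferon gamma, newly built cores carry Psmb8, Psmb9 and Psmb10 in place of Psmb5, Psmb6 and Psmb7, which changes the peptides made for MHC class I. The factor NRF1 (gene Nfe2l1) is known to raise the subunit genes together when degradation falls behind. In hepatocytes the constitutive form prevails.

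The upstream sequences of 5 genes are shown, since the values below compare Psmb5 with Psmb8, Psmb6 with Psmb9, and Psmb9 with its neighbour Tap1. They are the 250 bases before the RefSeq start of Psmb5, Psmb6 and Psmb8, and the 225 bases that lie between the starts of Psmb9 and Tap1, which are read in opposite directions (RefSeq, GRCm38.p6, while the reads were aligned to GRCm39). Capitals mark matches to 3 motifs, searched on both strands: TGACNNNGC, the core of the element bound by NRF1 and NRF2 with small Maf proteins; GAAA repeated after any 2 bases, the interferon-stimulated response element; and TTCNNNGAA, the interferon gamma-activated (GAS) element.
Psmb5 (chr14:54617996-54618245, - strand): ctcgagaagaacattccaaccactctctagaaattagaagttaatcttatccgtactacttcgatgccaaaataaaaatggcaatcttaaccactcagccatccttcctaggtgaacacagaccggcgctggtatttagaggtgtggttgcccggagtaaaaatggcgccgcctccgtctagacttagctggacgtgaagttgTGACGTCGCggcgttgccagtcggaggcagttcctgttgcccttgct
Psmb6 (chr11:70525107-70525356, + strand): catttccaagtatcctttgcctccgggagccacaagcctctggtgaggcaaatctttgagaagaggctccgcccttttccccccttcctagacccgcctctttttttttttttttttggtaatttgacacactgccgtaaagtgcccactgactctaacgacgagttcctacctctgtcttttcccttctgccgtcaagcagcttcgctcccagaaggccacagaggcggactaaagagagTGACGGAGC
Psmb8 (chr17:34197945-34198194, + strand): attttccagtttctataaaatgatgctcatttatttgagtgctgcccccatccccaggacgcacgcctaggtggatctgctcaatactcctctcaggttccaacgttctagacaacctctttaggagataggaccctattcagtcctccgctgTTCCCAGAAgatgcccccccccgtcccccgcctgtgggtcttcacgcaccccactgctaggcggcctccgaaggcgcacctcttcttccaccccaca
Psmb9 and Tap1 (chr17:34187331-34187555, + strand): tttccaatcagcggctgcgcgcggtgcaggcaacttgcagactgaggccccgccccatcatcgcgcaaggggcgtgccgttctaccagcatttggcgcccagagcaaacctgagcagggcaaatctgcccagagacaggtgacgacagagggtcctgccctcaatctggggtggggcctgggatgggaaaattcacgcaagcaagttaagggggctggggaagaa
The match in Psmb5 begins at position -47 and that in Psmb6 at position -9 from the start, and both fit TGACNNNGC. These letters hold TGACG as well, the core of the cyclic AMP response element. The match in Psmb8 begins at position -97 and fits TTCNNNGAA. The interval between Psmb9 and Tap1 held no match to any of the 3 motifs. TGACNNNGC was found before 11.5% of the 27025 genes in the RefSeq table, counted over each gene's listed starts, and TTCNNNGAA before 8.13%. Of the 50 genes examined, 42 had an entry, and 5 (11.9%) held TGACNNNGC.

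Transcripts of the core were abundant in every liver. Of the alpha ring, which gates the barrel, the lowest gene over the 12 mice was Psma1 (72.3 FPKM) and the highest Psma4 (112 FPKM), a ratio of 1.54. Psma2 lay at 89.7 FPKM, Psma3 at 109, Psma5 at 73.2, Psma6 at 109.6 and Psma7 at 94.2 FPKM on average. The constitutive beta ring reached higher, from Psmb2 (86.3 FPKM) to Psmb7 (206 FPKM), a ratio of 2.38. Within a mouse, the mean of the alpha genes was 64.1% ± 2.94 of that of the constitutive beta genes in Con mice and 62.6% ± 1.69 in Exe mice (SD over 6 mice each). The assembled core holds its subunits in equal numbers, whereas their transcripts differed in level.

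The 3 subunits that carry the constitutive cutting sites were among the highest. Psmb7 was at 203, 189, 198, 215, 192 and 189 FPKM in Con 1 to Con 6 and 210.04, 225, 211, 215, 211 and 211 FPKM in Exe 1 to Exe 6. Psmb5 was at 179.5, 174, 145, 189, 159 and 159 FPKM in Con 1 to Con 6 and 159, 179, 178, 172, 186 and 182 FPKM in Exe 1 to Exe 6. Psmb6 was at 136, 123, 106, 138, 119 and 111 FPKM in Con 1 to Con 6 and 116, 142, 113, 148, 127 and 132 FPKM in Exe 1 to Exe 6. Psmb7 was above Psmb5 in 12 of 12 mice, and Psmb5 was above Psmb6 in 12 of 12 mice. The structural subunits Psmb3 (181 FPKM) and Psmb4 (165 FPKM) lay between Psmb7 and Psmb6. Psmb3 was above Psmb5 in 8 of 12 mice, so these neighbours were not separated, while Psmb1 (107 FPKM) and Psmb2 were the lowest of the ring.

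**Figure D1:**
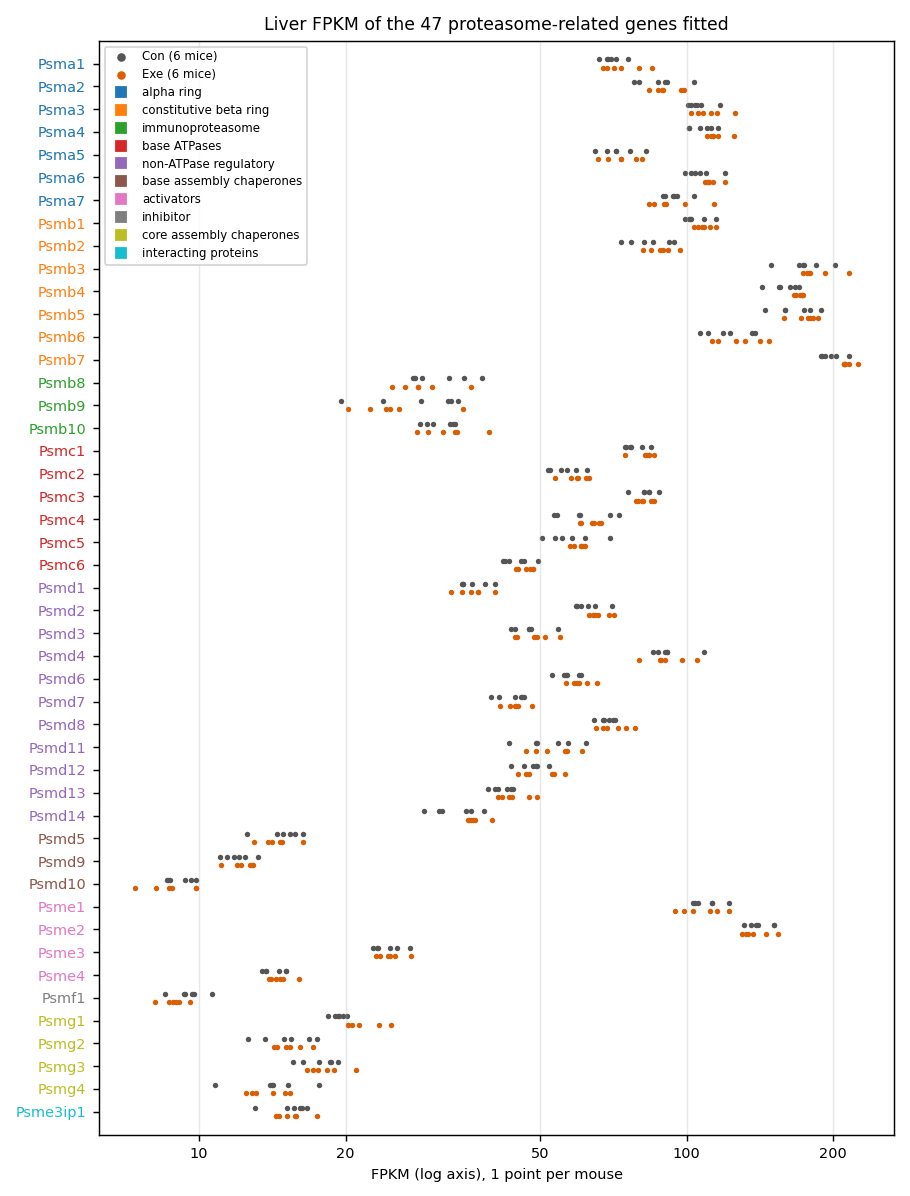
FPKM of the 47 genes fitted, on a log axis, with 1 point per mouse (grey, Con; orange, Exe) and gene names coloured by class. The constitutive beta genes reach above 200 FPKM, the 3 immunoproteasome genes lie between 19.58 and 39.37 FPKM, and the points of both groups overlap for each gene but Psmg1.

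The regulatory particle was lower than the core. The mean of its 17 genes was 48.1% ± 1.62 of the mean of the 14 constitutive core genes in Con mice and 47.2% ± 0.879 in Exe mice (SD, n = 6). Of the ATPases, which pull the substrate into the core, Psmc6 (45.9 FPKM) was lowest and Psmc3 (82.2 FPKM) highest, with Psmc1 (80.2 FPKM) close to it and above it in 5 of 12 mice. Psmc2, Psmc4 and Psmc5 were at 57.9, 62.8 and 59.2 FPKM. Of the non-ATPase subunits, the ubiquitin receptor Psmd4 was highest (92 FPKM) and the deubiquitinase Psmd14, which removes the ubiquitin chain, was lowest (35.2 FPKM). The scaffold subunits Psmd1 and Psmd2 were at 36.5 and 64.7 FPKM. The lid subunits Psmd3, Psmd6, Psmd7, Psmd8, Psmd11, Psmd12 and Psmd13 lay between 43.1 FPKM (Psmd13) and 69.9 FPKM (Psmd8). The chaperones that assemble the base were far lower, with Psmd5 at 14.7, Psmd9 at 12.1 and Psmd10 (gankyrin) at 8.97 FPKM.

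The activators differed from each other. Psme1 and Psme2, partners in the cap that interferon gamma induces, were at the level of core subunits, whereas the nuclear activators Psme3 and Psme4 were not. In Con mice Psme1 was at 113, 104, 103, 122, 105 and 113 FPKM, and in Exe mice at 94.6, 98.7, 112, 115, 122 and 103 FPKM, in the order of their numbers. Psme2 was at 151, 140.3, 131, 151, 135 and 139 FPKM in Con 1 to Con 6 and 145, 132, 130.2, 134, 154 and 137 FPKM in Exe 1 to Exe 6. Psme2 was above Psme1 in 12 of 12 mice. The lowest, median and highest values of Psme3 were 22.7, 24 and 27.1 FPKM (Con) and 23, 24.5 and 27.2 FPKM (Exe). Those of Psme4 were 13.5, 14.2 and 15.1 FPKM (Con) and 13.9, 14.5 and 16 FPKM (Exe). Psme3 was above Psme4 in 12 of 12 mice. The inhibitor Psmf1, which binds the core, was at 8.5, 9.52 and 10.6 FPKM (Con) and 8.12, 8.91 and 9.57 FPKM (Exe) in the same order. The values of both groups overlapped for each of these genes.

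Of the chaperones that assemble the core, the Psmg genes, Psmg1 was highest (20.5 FPKM) and Psmg4 lowest (14.1 FPKM), with Psmg2 and Psmg3 at 15.3 and 18 FPKM. Low values were found for 3 genes, which did not pass the filter described below. Psma8, an alpha subunit of the testis, lay at 0.24 to 1.15 FPKM (Con) and 0.32 to 0.98 FPKM (Exe). Psmc3ip, a recombination factor of meiosis, lay at 0.3 to 0.6 FPKM (Con) and 0.22 to 0.77 FPKM (Exe). Psme2b, an intronless copy of Psme2 with which reads may be shared, lay at 0 to 0.25 FPKM (Con) and 0.12 to 0.48 FPKM (Exe) and was listed at 0 in Con 3 and Con 6. Psme3ip1 was at 15.5 FPKM on average.

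The question put to these genes was whether 6 weeks of running changed them. The log2(FPKM + 1) values of the 10241 genes with at least 1 FPKM in at least 6 of the 12 mice, 47 of the 50 examined among them, were fitted with limma. On this scale the change of low genes is understated. No gene of the proteasome passed an adjusted p of 0.05, with or without the absolute log2 fold change over 1, and neither did any other gene (0 genes, 0.0% of all genes fitted). The paper, with a count tool (DESeq) and both of these thresholds, did report genes that differed between the groups. The absence of calls here therefore holds for this fit of FPKM, and not for every test of these livers. The smallest adjusted p of the 47 was 0.793 from limma. At an unadjusted p of 0.05, 2 of the 47 were called, both higher in Exe mice, where 4.27% of all genes fitted were called higher and 1.94% lower (6.21% in either direction). A share of 2 in 47 is near this background. By sign alone, 35 of the 47 estimates were above 0 and 12 below, where 57.5% of all genes were above 0. The median log2 fold change was 0.05, and 0.02 over all genes fitted. With quantile normalization between mice, where 52.7% of all genes were above 0 (median 0.00526), 32 estimates were above 0 (median 0.02), and with median-ratio scaling, where 49.9% were (median -0.000272), 32 (median 0.03).

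The estimates of the constitutive core were mostly above 0. All 7 constitutive beta genes had estimates above 0, from 0.05 to 0.12 (median 0.08), and 6 of the 7 alpha genes did, from -0.02 to 0.09 (median 0.07), with Psma7 the exception. With single mice left out the median of the beta ring lay between 0.04 (without Con 3) and 0.12 (without Con 4), and that of the alpha ring between 0.04 (without Exe 4) and 0.10 (without Con 4). With quantile normalization they were 0.04 and 0.02. Of the ATPases 5 of 6 were above 0 (median 0.06), with Psmc3 at -0.00996, and of the non-ATPase subunits 9 of 11 (median 0.05), with Psmd1 and Psmd4 below. The activators were split, 2 above and 2 below, with a median of -0.00594. Over the 31 constitutive core and regulatory genes the median was 0.07, and the median coefficient of variation of these genes over the 12 mice was 6.88%. This median lay between 0.05 and 0.10 when single mice were omitted, lowest without Exe 2 and highest without Con 4, and at 0.03 with quantile normalization. The median of all genes fitted was 0.00526 in that setting.

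Gene by gene the differences were small. On the log2 scale, Exe minus Con, those of the alpha ring were Psma1 0.08, Psma2 0.04, Psma3 0.07, Psma4 0.09, Psma5 0.02, Psma6 0.07 and Psma7 -0.02, and those of the constitutive beta ring Psmb1 0.05, Psmb2 0.08, Psmb3 0.09, Psmb4 0.10, Psmb5 0.07, Psmb6 0.08 and Psmb7 0.11. The ATPases gave Psmc1 0.07, Psmc2 0.07, Psmc3 -0.01, Psmc4 0.05, Psmc5 0.05 and Psmc6 0.06. The non-ATPase subunits gave Psmd1 -0.00478, Psmd2 0.08, Psmd3 0.04, Psmd4 -0.01, Psmd6 0.08, Psmd7 0.02, Psmd8 0.05, Psmd11 0.03, Psmd12 0.06, Psmd13 0.08 and Psmd14 0.14. Standard errors over these 31 genes ran from 0.0466 (Psmc3) to 0.089 (Psmd11). The base chaperones gave Psmd5 -0.04, Psmd9 0.03 and Psmd10 -0.05, with standard errors of 0.07, 0.06 and 0.07.

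**Figure D2:**
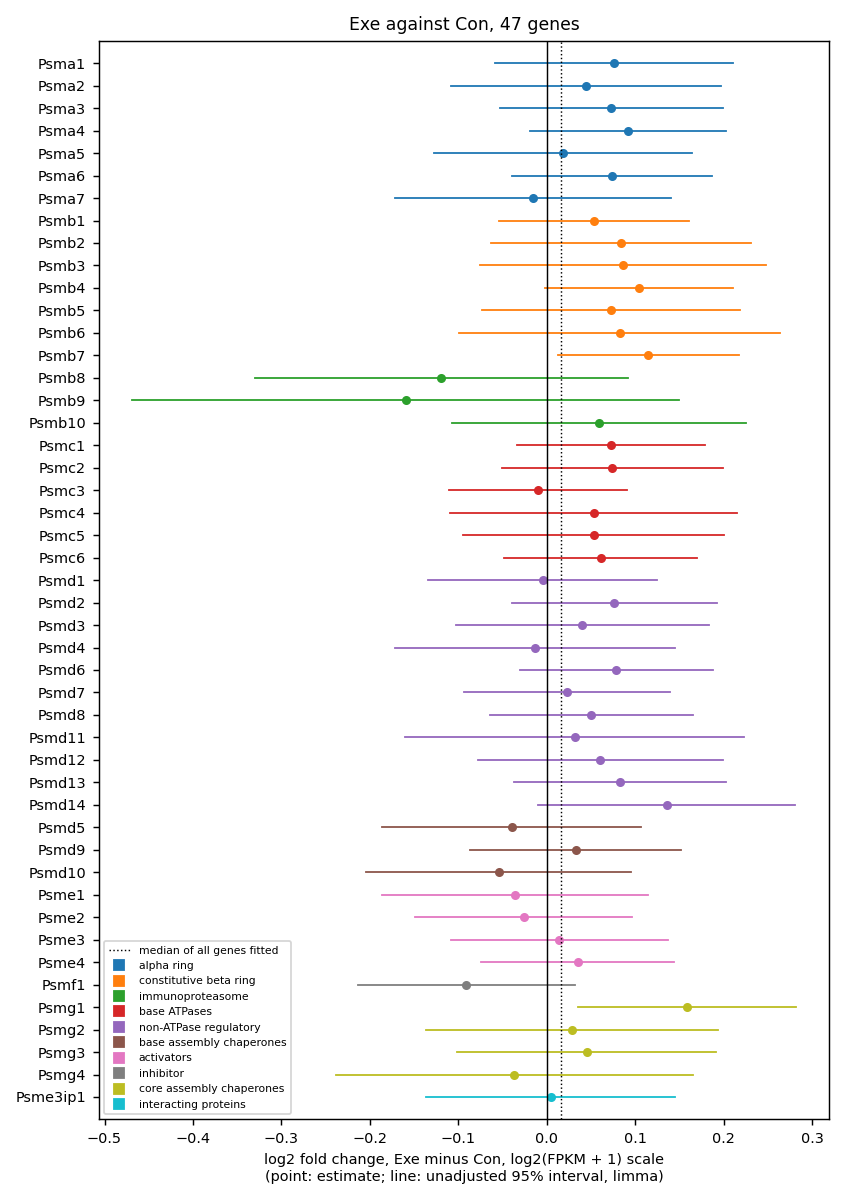
Log2 fold change of the 47 genes, Exe minus Con, on the log2(FPKM + 1) scale, with unadjusted 95% intervals from limma, coloured by class, and with a dotted line at the median of all genes fitted. Intervals of 2 genes, Psmb7 and Psmg1, lie above 0 before adjustment, and the widest belong to Psmb9 and Psmb8.

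The genes past the unadjusted threshold were Psmb7 and Psmg1. Psmb7, the trypsin-like subunit, had a mean of 198 ± 10.2 FPKM (Con) against 214 ± 5.71 FPKM (Exe) (SD, n = 6), giving a log2 difference of 0.11 with a standard error of 0.05 (limma, adjusted p = 0.793), with an unadjusted 95% interval of 0.01 to 0.22. In the values given above, 5 of the 6 Exe mice were below Con 4 (215.4 FPKM), so the groups overlapped, and 5 of the 6 Con mice were below every Exe mouse. Psmg1, which pairs with Psmg2 to bring the alpha ring together, was at 19.7, 19, 18.4, 19.4, 19.3 and 20.1 FPKM in Con 1 to Con 6 and 24.8, 20.6, 21.3, 20.2, 20.2 and 23.4 FPKM in Exe 1 to Exe 6. Every Exe mouse was above every Con mouse, by a margin of 20.17 against 20.09 FPKM at the border, and Exe 1 and Exe 6 were highest. In limma Psmg1 differed by 0.16 on the log2 scale, with an interval of 0.03 to 0.28, a standard error of 0.06 and an adjusted p = 0.793. Of the 47 genes, 1 had groups that did not overlap, and 0.234% of all genes fitted did so with the Exe mice higher (0.0195% with the Exe mice lower). Among its partners, Psmg2 had a log2 fold change of 0.03 (standard error 0.08), Psmg3 of 0.04 (0.07) and Psmg4 of -0.04 (0.09). The estimates nearest to the threshold but not past it were those of Psmb4 (0.10, interval -0.00239 to 0.21) and Psmd14 (0.14, interval -0.01 to 0.28). Without Con 4, 7 of the 47 were called at an unadjusted p of 0.05, all higher in Exe mice (Psma4, Psma6, Psmb4, Psmb7, Psmd2, Psmd14 and Psmg1), while the calls over all genes rose as well, to 593 higher of 10196. Without Con 1, 4 were called, beside 348 higher of 10188 over all genes. Without Con 2, Con 5, Con 6 or Exe 2 Psmg1 alone was called. With quantile normalization Psmb7 was not called, and with median-ratio scaling Psmg1 was not.

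The activators and the inhibitor were not called. Psme1 had a log2 fold change of -0.04 (interval -0.19 to 0.12), Psme2 of -0.03 (-0.15 to 0.10), Psme3 of 0.01 (-0.11 to 0.14) and Psme4 of 0.03 (-0.07 to 0.14). Psmf1 had a mean of 9.54 ± 0.698 FPKM (Con) against 8.88 ± 0.478 FPKM (Exe) (SD, n = 6), giving a log2 difference of -0.09 with a standard error of 0.06 (limma, adjusted p = 0.883). Psme2b, below the filter, was at 0.13, 0.13, 0, 0.12, 0.25 and 0 FPKM in Con 1 to Con 6 and 0.38, 0.28, 0.12, 0.48, 0.25 and 0.46 FPKM in Exe 1 to Exe 6. It was higher in Exe mice on average, but these values are low and given to 2 decimals, and the gene was not among those fitted (with no filter it was called at an unadjusted p of 0.05). Psma8 and Psmc3ip were at most 1.15 FPKM in any mouse and overlapped between groups.

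The 3 immunoproteasome genes were lower than every gene of the constitutive core, and Psmb8 and Psmb9, but not Psmb10, varied more between mice than any of them. Psmb8 was at 38, 34.9, 27.5, 32.6, 27.8 and 28.7 FPKM in Con 1 to Con 6 and 30.1, 26.4, 28.2, 24.9, 36.1 and 28.1 FPKM in Exe 1 to Exe 6. Psmb9 was at 34, 32.9, 23.9, 32.4, 19.6 and 28.5 FPKM in Con 1 to Con 6 and 25.7, 22.4, 24.7, 20.2, 34.9 and 24.2 FPKM in Exe 1 to Exe 6. Psmb10 was at 32.8, 29.4, 28.4, 33.4, 33.1 and 30.2 FPKM in Con 1 to Con 6 and 31.7, 33.5, 28, 29.5, 39.4 and 33.9 FPKM in Exe 1 to Exe 6. For Psmb8 and Psmb9, Con 1, Con 2, Con 4 and Exe 5 were the 4 highest mice and Exe 4 was among the 2 lowest, whereas Psmb10 was high in Exe 5 alone. The highest mouse was 1.78 times the lowest for Psmb9, 1.52 times for Psmb8 and 1.41 times for Psmb10. The coefficient of variation over the 12 mice was 20.1% for Psmb9, 13.7% for Psmb8 and 9.9% for Psmb10, and 3.93% to 11% for the 31 constitutive core and regulatory genes. Its median over the 1787 genes at or above the lowest of those 31 was 9.33%, but the 3 immunoproteasome genes lie below that level. Over all 10241 genes fitted the median was 11.7%, above the value of Psmb10 and below those of Psmb8 and Psmb9.

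Between groups, the 3 genes did not share a sign. Psmb8 had a mean of 31.6 ± 4.33 FPKM (Con) against 29 ± 3.91 FPKM (Exe) (SD, n = 6), giving a log2 difference of -0.12 with a standard error of 0.10 (limma, adjusted p = 0.929). Psmb9 had a mean of 28.5 ± 5.75 FPKM (Con) against 25.4 ± 5.05 FPKM (Exe), giving a log2 difference of -0.16 with a standard error of 0.14 (limma, adjusted p = 0.931). Psmb10 had a mean of 31.2 ± 2.18 FPKM (Con) against 32.7 ± 3.99 FPKM (Exe), giving a log2 difference of 0.06 with a standard error of 0.08 (limma, adjusted p = 0.947). The unadjusted 95% intervals were -0.33 to 0.09 for Psmb8, -0.47 to 0.15 for Psmb9 and -0.11 to 0.23 for Psmb10, and each holds 0. Without Exe 5 the log2 fold change was -0.18 for Psmb8 and 0.0053 for Psmb10, and without Con 1 it was -0.06 for Psmb8. For Psmb9 it was -0.26 without Con 5 and -0.10 without Exe 4.

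Each immunoproteasome gene was then set against the subunit it replaces, within a mouse, which does not depend on a scaling between mice. Psmb8 was 21.2, 20.1, 19, 17.3, 17.4 and 18% in Con 1 to Con 6 and 19, 14.7, 15.9, 14.5, 19.4 and 15.4% in Exe 1 to Exe 6 of Psmb5. The means were 18.8% ± 1.57 and 16.5% ± 2.15 (SD, n = 6), and 4 of the 6 Exe mice were below every Con mouse, with Exe 1 and Exe 5 among the Con mice. Psmb9 was 24.9, 26.7, 22.4, 23.4, 16.5 and 25.8% in Con 1 to Con 6 and 22.1, 15.8, 21.9, 13.7, 27.6 and 18.4% in Exe 1 to Exe 6 of Psmb6. The means were 23.3% ± 3.67 and 19.9% ± 5, with Exe 5 the highest and Exe 4 the lowest of the 12 mice. Psmb10 was 16.2, 15.6, 14.3, 15.5, 17.2 and 15.9% in Con 1 to Con 6 and 15.1, 14.9, 13.3, 13.7, 18.6 and 16% in Exe 1 to Exe 6 of Psmb7, with means of 15.8% ± 0.953 and 15.3% ± 1.92. In Exe mice the mean ratio was different from that in Con mice by -2.33, -3.39 and -0.512 percentage points in turn. These ratios were given no test. Without Exe 5 the differences were -2.91, -4.92 and -1.18 percentage points. The difference of Psmb8 per Psmb5 was -1.85 without Con 1, and without Exe 4 that of Psmb9 per Psmb6 was -2.14. Without Exe 3 that of Psmb10 per Psmb7 was -0.112. In every mouse each immunoproteasome transcript was at 27.55% of its counterpart or less.

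**Figure D3:**
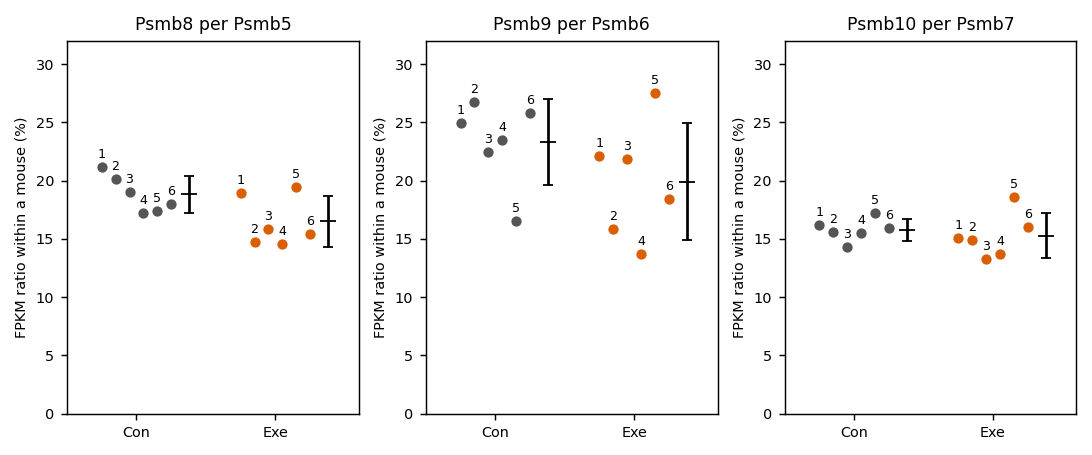
FPKM of each immunoproteasome gene as a percentage of the constitutive subunit it replaces, with 1 numbered point per mouse (grey, Con; orange, Exe) and the mean with SD (n = 6). Exe 5 is the highest Exe mouse in all 3 ratios, and 4 Exe mice lie below all Con mice for Psmb8 per Psmb5.

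To see which genes were high in the same livers, 8 relations were examined over the 12 mice, with 2-sided permutation tests and Benjamini-Hochberg adjustment. Psmb8 and Psmb9, neighbours in the MHC region, were related with Pearson's r = 0.916 (p = 3e-05, 0.00012 adjusted over 8 relations) and Spearman's rho = 0.944 (p = 2e-05, 0.00016 adjusted), permutation tests. Without Con 1 and Exe 5, the mice farthest from the median of Psmb8, r was 0.882 (p = 0.00091, permutation test). Within groups r was 0.84 for Con (p = 0.0347) and 0.995 for Exe (p = 0.00139, the smallest that 6 mice can give), by exact permutation tests. Psmb9 and Tap1, the peptide transporter gene across the interval shown above, were related with Pearson's r = 0.916 (p = 2e-05, 0.00012 adjusted over 8 relations) and Spearman's rho = 0.86 (p = 0.00057, 0.00228 adjusted), permutation tests. Without Exe 5 and Con 1, r was 0.877 (p = 0.0012, permutation test), and within groups it was 0.868 (p = 0.0319) and 0.977 (p = 0.00556, exact permutation tests). Tap1 itself was at 12.9, 13.2, 11.4, 11.1, 8.16 and 11.3 FPKM in Con 1 to Con 6 and 9.85, 9.37, 10.6, 8.49, 14.9 and 9.91 FPKM in Exe 1 to Exe 6. Exe 5 was highest and Con 5 lowest in both Tap1 and Psmb9.

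Psmb10, which lies on another chromosome, had weaker correlations with the other immunoproteasome genes over the 12 mice than they had with each other, a difference that was not tested. With Psmb8 it had r = 0.417 (p = 0.179, adjusted 0.287, permutation test), rho = 0.182 (p = 0.572, adjusted 0.726), and r = 0.0276 without Con 1 and Exe 5. With Psmb9 it had r = 0.327 (p = 0.304, adjusted 0.405, permutation test), rho = 0.154 (p = 0.635, adjusted 0.726), and r = -0.0844 without these mice. Within groups, Psmb10 had r = 0.288 (Con, p = 0.571) and 0.728 (Exe, p = 0.108) with Psmb8, and 0.0408 (Con, p = 0.925) and 0.736 (Exe, p = 0.106) with Psmb9, by exact permutation tests. Psme1 and Psme2 had r = 0.445 (p = 0.145, adjusted 0.287, permutation test) and rho = 0.378 (p = 0.227, adjusted 0.453). Without Exe 1 and Con 4, r was 0.582 (p = 0.0816, permutation test). For Psmb8 and the acute-phase gene Lcn2 the values were Pearson's r = 0.728 (p = 0.0083, 0.0221 adjusted over 8 relations) and Spearman's rho = 0.622 (p = 0.035, 0.0933 adjusted), permutation tests, but without Con 1 and Exe 5 r was 0.392 (p = 0.267, permutation test). Within groups, which each keep 1 of those mice, r was 0.662 (Con, p = 0.161) and 0.882 (Exe, p = 0.025), by exact permutation tests. The relation was thus weaker without Con 1 and Exe 5. The other 10 mice, with a narrower range of Psmb8, cannot settle whether it rests on that pair. Psmb8 and the T cell gene Cd3e had r = 0.187 (p = 0.567, adjusted 0.648, permutation test), rho = 0.0355 (p = 0.921, adjusted 0.921) and r = -0.25 without the same mice. Cd3e lay between 0 (Con 6) and 0.61 FPKM (Exe 5), below the filter and given to 2 decimals. A relation with T cells cannot be judged from such values. Psmb5 and Nfe2l1 had r = -0.0378 (p = 0.907, adjusted 0.907, permutation test), rho = -0.259 (p = 0.414, adjusted 0.663) and r = -0.0611 without Con 3 and Exe 1. This relation is between transcripts, and the activity of the NRF1 protein was not measured.

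**Figure D4:**
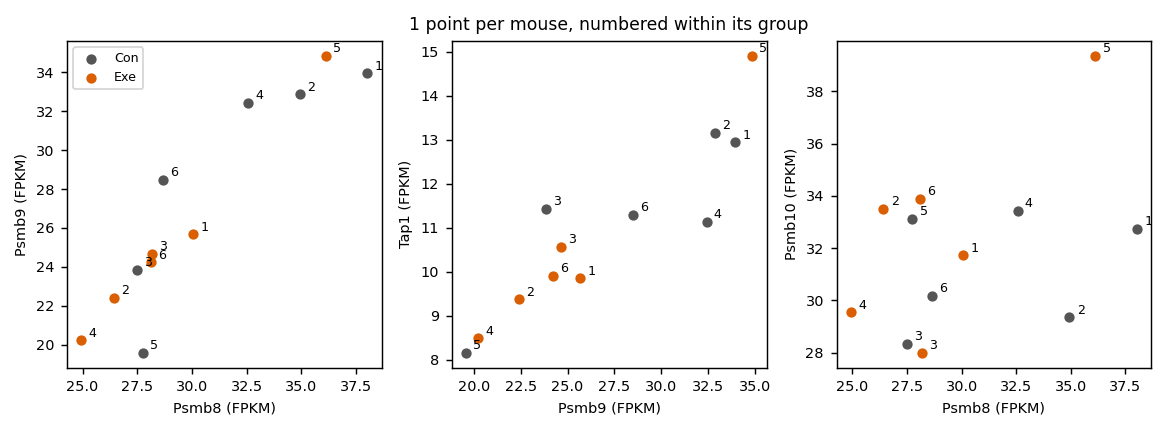
FPKM of Psmb9 against Psmb8, Tap1 against Psmb9 and Psmb10 against Psmb8, with 1 numbered point per mouse (grey, Con; orange, Exe). The points of the first and second panels lie along a line with Exe 5, Con 1 and Con 2 at its upper end, and those of the panel for Psmb10 do not.

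Immune cells carry immunoproteasome transcripts, and in whole liver RNA more cells of a type and more RNA per cell cannot be told apart. Defining genes of hepatocytes were the most abundant of the marker lists (summed FPKM 52380 to 69000 in Con and 60150 to 75540 in Exe mice). The 10 Kupffer cell and macrophage genes summed to 459, 558, 334, 394, 303 and 309 FPKM in Con 1 to Con 6 and 274, 219.5, 427, 309.9, 501 and 309 FPKM in Exe 1 to Exe 6, and each of the 10 had a lower mean in Exe mice. Of all genes fitted, 42.5% had a log2 fold change below 0. The sums overlapped between groups, with means of 393 ± 100 FPKM (Con) and 340 ± 104 FPKM (Exe) (SD). Markers of the same cells are not independent of each other, and this difference was not tested. Con 2, Exe 5 and Con 1 were highest in the Kupffer cell and macrophage list, and they are also 3 of the 4 highest mice in Psmb8 and Psmb9. Exe 3 came next in that list (427 FPKM) but was not among the high mice in Psmb8 (28.2 FPKM) or Psmb9 (24.7 FPKM). The T cell genes (8 of 9 in the list, with Trac not analysed here) summed to 1.84 to 4.11 FPKM (Con) and to 2.78 to 5.28 FPKM (Exe), all with a mean under 1 FPKM. The 6 B and plasma cell genes summed to 3.19 to 5.83 and 5.34 to 8.61 FPKM, the 6 NK cell genes to 1.39 to 3.29 and 1.74 to 5.32 FPKM, and the 6 dendritic cell genes to 1.08 to 1.69 and 1.25 to 1.86 FPKM. Lower means in Exe mice were found for 2 of the 8 T cell genes, 0 of the 6 B and plasma cell genes, 1 of the 6 NK cell genes and 0 of the 6 dendritic cell genes. By sum, Exe 5 was the highest mouse in each of these 4 lists, with 1.86 against 1.84 FPKM (Exe 2) for dendritic cells. Gene by gene, it was highest for 4 of the 8 T cell genes and 3 of the 6 B and plasma cell genes. The same held for 3 of the 6 NK cell genes and 0 of the 6 dendritic cell genes (ties went to the mouse listed first). Most of these genes are near the floor. The 8 neutrophil genes summed to 13.1 to 35.3 and 10.4 to 53 FPKM, and the 6 genes of the sinusoidal endothelium to 57.5 to 96.1 and 69.2 to 83.1 FPKM. Exe 5 also had the highest sum of the 9 pancreatic acinar genes (22.6 FPKM, against at most 5.23 FPKM in the other Exe mice) and the most red blood cell transcripts (1290.0 FPKM, against at most 912 FPKM in the other Exe mice). The part of these cells in the values of Psmb8 and Psmb9 was not tested.

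The constitutive subunits varied together between mice. After the group means were removed, the median Pearson correlation of log2 values over the 12 mice was 0.53 for the 91 pairs of core genes, of which 89 were above 0, and 0.35 for the 136 pairs of regulatory genes. It was 0.39 for the 238 pairs of a core with a regulatory gene, and 0.055 over all pairs of genes fitted. These correlations share the same 12 libraries and any error of scaling, and they are given as a description. The immunoproteasome genes had a median of 0.54 among themselves (3 of 3 pairs above 0), 0.14 with the core (42 pairs), 0.62 with the interferon response list (48 of 48 pairs above 0) and 0.54 with the MHC class I list (33 pairs). Against the acute-phase list, the median was 0.52 for the immunoproteasome and -0.3 for the core (17 of 112 pairs above 0). The core assembly chaperones were not alike, with a median of -0.034 over 6 pairs.

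By mouse, Con 4, Exe 2, Exe 4 and Exe 5 held the high values of the constitutive genes. Con 4 was above the mean of the 12 mice in 30 of the 31 constitutive core and regulatory genes, Exe 4 in 28, Exe 5 in 27 and Exe 2 in 25, and Con 5 in 2. The highest value lay in Exe 2 for 9 genes, in Con 4 for 8 and in Exe 4 for 8. The lowest lay in Con 3 for 9 genes, in Con 5 for 6, in Con 2 and Con 6 for 5 each, and in Con 1 and Exe 1 for 3 each. This was not counted over all genes fitted. Since these genes varied together, the counts describe single mice and not a difference between groups. The median deviation of the core genes was 0.12 on the log2 scale in Con 4 and 0.12 in Exe 4, and -0.09 in Con 3, while that of all genes fitted was 0.04, 0.03 and 0.0019. In Exe 2 it was 0.087 for the core genes and 0.064 for all genes fitted, the highest of the 12 mice. In Exe 4 the immunoproteasome genes went the other way, with a median deviation of -0.26, and in Exe 5 and Con 1 they were at 0.30 and 0.33. The sum of the alpha ring was 718 FPKM in Con 4 and 624.2 to 640.0 FPKM in the other Con mice.

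**Figure D5:**
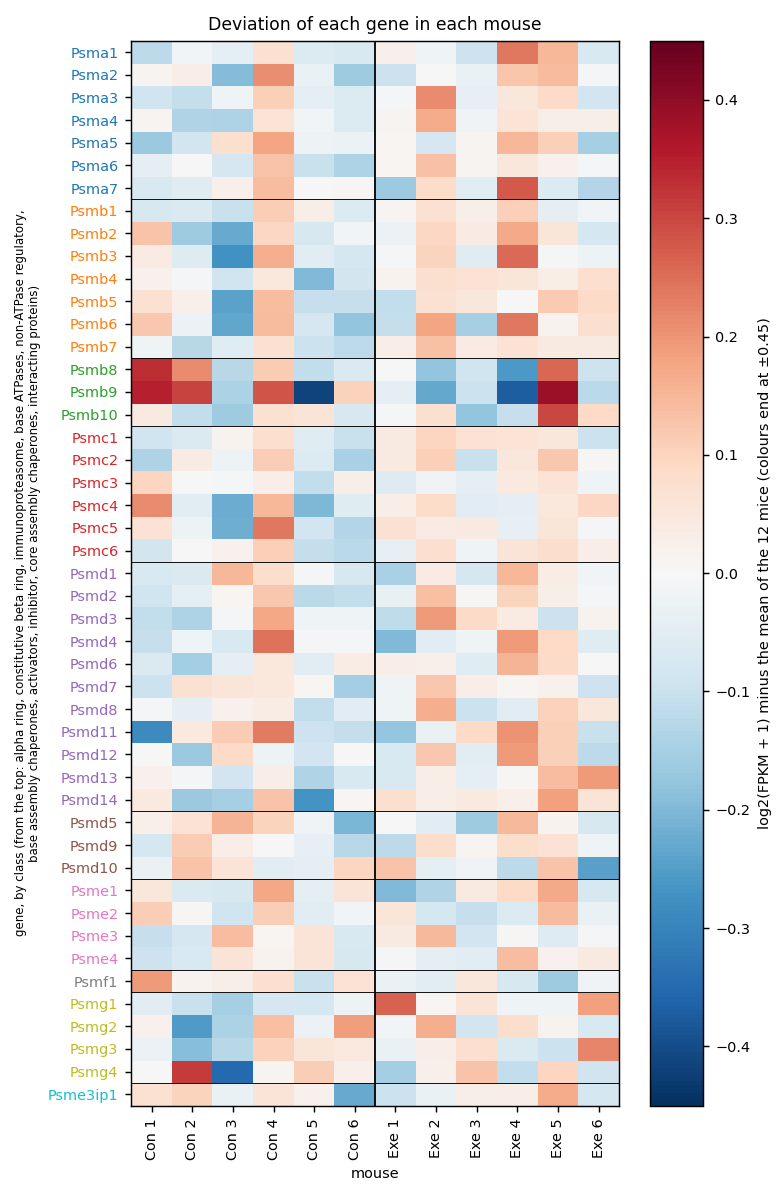
Deviation of each of the 47 genes from its mean over the 12 mice on the log2(FPKM + 1) scale, with 1 column per mouse and genes ordered by class. The constitutive genes are red in most rows of Con 4, Exe 2, Exe 4 and Exe 5, and Psmb8 and Psmb9 are red in Con 1, Con 2 and Exe 5 and blue in Exe 4, with Psmb9 bluest in Con 5.

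Other genes of the pathway were counted from fixed lists. Of 14 partners of the proteasome that the rule does not take (Paaf1 is not analysed here), 10 had estimates above 0 and 4 below (median 0.03), and 0 were called at an unadjusted p of 0.05. Adrm1, a ubiquitin receptor of the particle, had a mean of 76.2 ± 7.66 FPKM (Con) against 76.2 ± 8.08 FPKM (Exe) (SD, n = 6), giving a log2 difference of -0.00109 with a standard error of 0.08 (limma, adjusted p = 1). The subunit Sem1 had a mean of 148 ± 13.6 FPKM (Con) against 153 ± 7.8 FPKM (Exe), giving a log2 difference of 0.06 with a standard error of 0.07 (limma, adjusted p = 0.944). Pomp, which helps the beta ring mature, had a mean of 172 ± 14.1 FPKM (Con) against 172 ± 9.96 FPKM (Exe), giving a log2 difference of -0.00248 with a standard error of 0.06 (limma, adjusted p = 0.999), and lay within the range of the beta subunits. Of 10 genes of the NRF1 axis, 6 were above 0 (median 0.02, and -0.00974 with quantile normalization) and 0 were called. Nfe2l1 had a mean of 27 ± 2.32 FPKM (Con) against 26.8 ± 2.18 FPKM (Exe), giving a log2 difference of -0.01 with a standard error of 0.07 (limma, adjusted p = 0.992). Transcript levels do not give the activity of the protein. Of 5 genes of ubiquitin supply and activation that were fitted (Uba6 was below the filter), 3 were above 0 (median 0.08) and 0 were called.

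On the side of antigen presentation, 9 of 11 MHC class I genes had estimates above 0 (median 0.07, where 57.5% of all genes were above 0). At an unadjusted p of 0.05, 2 were called, where 6.21% of all genes were, namely the endoplasmic chaperones Calr and Canx, which also fold other glycoproteins. With quantile normalization 7 of 11 were above 0 and 0 were called. Calr had a mean of 501 ± 81.3 FPKM (Con) against 598 ± 48.3 FPKM (Exe) (SD, n = 6), giving a log2 difference of 0.27 with a standard error of 0.10 (limma, adjusted p = 0.793), and Canx a mean of 69.6 ± 3.24 FPKM (Con) against 75.3 ± 3.39 FPKM (Exe), giving a log2 difference of 0.11 with a standard error of 0.05 (limma, adjusted p = 0.799). Tap1 had a mean of 11.3 ± 1.79 FPKM (Con) against 10.5 ± 2.26 FPKM (Exe), giving a log2 difference of -0.11 with a standard error of 0.13 (limma, adjusted p = 0.943). Of 16 interferon response genes, 11 were above 0 (median 0.04) and 0 were called. The sign of this median rested on single mice, since it was -0.10 without Exe 5 (3 of 16 above 0), and it was -0.00804 without Con 5 (6 of 16). Of 8 acute-phase genes, 1 was above 0 and 7 below (median -0.65). With single mice left out this median lay between -1.30 (without Exe 5) and -0.27 (without Con 1, with 3 of 8 above 0), and it was also over 1.5 times nearer 0 without Con 2 (-0.39), Exe 2 (-0.33) or Exe 4 (-0.33), and over 1.5 times farther without Con 4 (-1.09) or Con 5 (-1.14). Of this list Crp, which binds damaged cells and microbes, was called, with a mean of 208 ± 22.2 FPKM (Con) against 239.8 ± 17.7 FPKM (Exe), giving a log2 difference of 0.20 with a standard error of 0.08 (limma, adjusted p = 0.793). Crp was the gene above 0, opposite to the other 7, and with quantile normalization 0 of the 8 acute-phase genes were called.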

How the data were processed

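Liver RNA was isolated with TRIzol and sequenced on the DNBseq platform with paired reads, in 12 mice. The authors removed reads of low quality, used HISAT for alignment to GRCm39, and the deposited values are FPKM with 2 decimals. The tool behind the FPKM is not given in the sources used here, and the submitters' processing notes also list Bowtie2 and mm10 with no role. Their sum per mouse ran from 735200 to 820107. The depth in reads is unknown, so no counting error is given.

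Genes that reached 1 FPKM in 6 or more of the 12 mice were fitted as log2(FPKM + 1) with limma 3.58.1 (lmFit, eBayes with a trend, group as the only term) in R 4.3.3, with Benjamini-Hochberg adjustment over all 10241 genes. The paper's count test was not used, because FPKM are not counts. The thresholds were an absolute log2 fold change over 1 and an adjusted p of 0.05, and an unadjusted p of 0.05 was used for description. Correlations used 100000 permutations, or exact permutations within groups. Figures and sums were made in Python 3.11.15. The fit and the permutations were tested on simulated data. The alternatives were quantile normalization, median-ratio scaling, a pseudocount of 0.1, no filter, a filter at a mean of 5 FPKM, robust moderation, the replicate number as a block, and each mouse left out in turn. In the last of these the minimum of 6 mice was kept.

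Members are the rows whose symbol fits the rule, and the members, gene lists and tests were chosen with earlier results of these data known (the acute-phase list after its values were seen). Genes were named by a rule: the immunoproteasome genes and their counterparts, the activators, the inhibitor, genes past an unadjusted p of 0.05, the highest and lowest of each class, and genes in which a mouse stood far from its group (Dixon's ratio above its 95% critical value). The other members were named to account for each. Psmb4 and Psmd14, as estimates near the threshold, were named after their values were seen. Of the pathway genes, 1 that this naming rule takes is not reported here. Sequences are from RefSeq (GRCm38.p6).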

Additional observations from a re-analysis of the deposited data

Results flagged for a closer look

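A mouse was held to stand out where its gap to the nearest other mouse of its group, divided by the range of the group (Dixon's ratio), was above the 95% critical value for 6 mice. Of 100 sets of 6 mice (50 genes in 2 groups) 6 stood out, where chance gives about 5. These are given with the range of the other mice of the group. They were Exe 5 in Psmb9 (34.9 FPKM, others 20.2 to 25.7) and in Psmd14 (39.99 FPKM, others 35.6 to 36.9), Exe 2 in Psmb7 (225 FPKM, others 210.04 to 215), Exe 1 in Psma8 (0.98 FPKM, others 0.32 to 0.47), Exe 6 in Psmc1, where it was low (74.9 FPKM, others 82.3 to 85.8), and Con 4 in Psmd4 (109 FPKM, others 85.2 to 91.4). In sums of a class, Exe 5 stood out in the immunoproteasome (110.4 FPKM, others 74.7 to 87.5) and Con 4 in the alpha ring (718 FPKM, others 624 to 640).

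Among values set beside these genes, Exe 5 stood out in Tap1 (14.9 FPKM, others 8.49 to 10.6), Crp (274 FPKM, others 229 to 243) and Lcn2 (609 FPKM, others 7.94 to 92.5). It also stood out in the summed markers of T cells (5.28 FPKM, others 2.78 to 3.64), B and plasma cells (8.61 FPKM, others 5.34 to 6.46), NK cells (5.32 FPKM, others 1.74 to 3.01) and pancreatic acinar cells (22.6 FPKM, others 0.8 to 5.23). Con 1 stood out in Lcn2 (719 FPKM, others 5.93 to 234) and Con 6 in the pancreatic acinar list (2.93 FPKM, others 0.6 to 1.14). Over all 172 sets tested 17 stood out, where chance gives about 9. This comparison is rough, since some of the added genes and lists were chosen after their values were seen. Sums and ratios also share genes with the sets counted above, and most of the sets named in this paragraph are of Exe 5. The labels give no condition that separates Exe 5 or Con 4 from the other mice of their groups.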

How the results depend on the processing

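Of 465 values under alternatives, 451 kept their direction and side of the threshold or stayed within the spread. This count does not measure stability, since the spread of a class median could exceed the median itself. That of the alpha ring was 0.0798, so its move from 0.0731 to 0.0211 with quantile normalization was counted as kept. No member passed both thresholds in any of the 19 alternatives, where the smallest adjusted p of a member lay between 0.504 and 0.999 (limma). The 2 calls at an unadjusted p of 0.05 became 1 with quantile normalization (Psmg1), 1 with median-ratio scaling (Psmb7), 4 with no filter (Psmb4, Psmb7, Psme2b and Psmg1) and between 1 and 7 with each mouse left out, with 7 without Con 4 and 4 without Con 1. Over all genes the calls higher in Exe mice moved too, from 437 of 10241 to 348 (quantile), 328 of 10237 (median-ratio), 558 of 16804 (no filter), 593 of 10196 (without Con 4) and 252 of 10202 (without Exe 2). With the replicate number as a block the count was 1 (Psmg1), beside 392 higher over all genes. The numbers were not shown to pair the mice, since the correlation of the deviations of same-numbered mice lay between -0.478 and 0.165, and the block changed no adjusted call. The log2 fold change of Psme3 was -0.00397 with median-ratio scaling and between -0.0131 and 0.0438 with each mouse left out. That of Psme1 lay between -0.0731 and 0.0004 in the same way. Why these values moved was not tested. The spread between mice limits what could be seen, since for single genes the unadjusted 95% interval of Psmb9 reached from -0.47 to 0.15 and that of Psmb7 from 0.01 to 0.22.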

Other observations

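Beyond the genes shown, TGACNNNGC was also found in the 250 bases before the RefSeq starts of Psmc6, Psmd12 and Psmd9. Their log2 fold changes were 0.06, 0.06 and 0.03. Letters of the interferon-stimulated response element were matched before Psmb3, Psmd4 and Psmd9, 3 of the 42 genes with an entry (7.14%). They were matched before 3.46% of all genes in the table. Of the immunoproteasome genes 0 of 3 had this match, and of the activators with an entry 0 of 4. TTCNNNGAA was found before Psmb8 and Psmg1. These are matches of letters, and binding was not tested. The genes with a match were named for it, after their values were seen.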
